A study of Mus musculus with 12 samples.

Results

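The mammary gland's answer to estradiol in mice with an intact cyclin D1 gene is described here across all measured genes, from the 3 arrays labelled Ccnd1+/+ E2 against the 3 labelled Ccnd1+/+ Vehicle, 6 of the 12 arrays of the study. Both groups were virgin female mice on a C57BL/6 background whose ovaries had been removed, so the main source of circulating estrogen was gone in both. They then carried for 7 days either a placebo pellet (the vehicle group) or a pellet that releases estradiol (0.72 mg, made for release over 60 days), and 1 gland RNA sample per mouse was hybridised to 1 Affymetrix array. The other 6 arrays are Ccnd1-/- glands in the same 2 treatments and enter only the estimate of each gene's spread and the test of the interaction. The labels name the tissue as mammary gland and do not say which gland was taken, whether its lymph node was left in, or how old the mice were.

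Estradiol acts on the gland through estrogen receptors, which bind DNA as nuclear receptors and switch target genes on or off. In the mammary gland the alpha receptor sits in a share of the luminal cells that line the ducts, and those cells pass the signal to their neighbours by secreted factors and by the progesterone receptor. A gland without ovarian hormone is mostly fat and stroma with a thin ductal tree, and estrogen given back makes ducts and their surroundings grow. Bulk RNA from such tissue mixes all of these cells, so that a lower signal from fewer cells of a type and one from less RNA per cell cannot be told apart.

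Each of 18193 genes is given by the probe set with the highest mean over the 12 arrays, as a log2 intensity on which a difference of 1 is a 2-fold change. Over all 45101 probe sets, the arrays' medians lay between 5.73 and 5.80 and their lower quartiles between 4.15 and 4.29. Pairs of the 6 arrays correlated at 0.948 to 0.990 over the same probe sets, which are not independent replicates. Precision here is limited by the number of arrays, 3 a group. The labelled tissue was borne out by its markers: Adipoq, the fat cell hormone adiponectin, read 13.49, 13.51 and 13.81 in the vehicle arrays and 13.61, 13.58 and 13.65 in the estradiol arrays, and none of 24 luminal and 23 fibroblast markers lay under the lower quartile in all arrays of a group.

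The cell content that the markers show was uneven within groups before any treatment effect is considered. B cell markers averaged 2.51 and 1.99 above (vehicle arrays 1 and 2) and -2.34 (vehicle array 3) around their mean over the 12 arrays, and -2.17, 0.91 and -2.49 in the estradiol arrays. Vehicle array 3 and estradiol arrays 1 and 3 were thus poor in B cell signal, and the groups overlapped. Summed on the linear scale, the 16 B cell markers ranged from 9.69 to 14.61 (log2) in vehicle and from 9.64 to 12.92 in estradiol arrays, the 25 skeletal muscle markers from 12.48 to 16.85 and from 13.38 to 14.79. Luminal markers, in contrast, averaged 0.01, -0.18 and 0.44 on vehicle and 0.81, 2.30 and 1.43 on estradiol, with sums of 11.91 to 12.69 against 13.09 to 14.67. For the 19 basal markers the averages were -0.64, -0.52 and 0.01 against 0.64, 1.25 and 0.87. For both epithelial lists every estradiol array lay above every vehicle array, and white fat markers, at -0.39, -0.12 and 0.49 against -0.10, -0.11 and 0.15, overlapped.

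**Figure D1:**
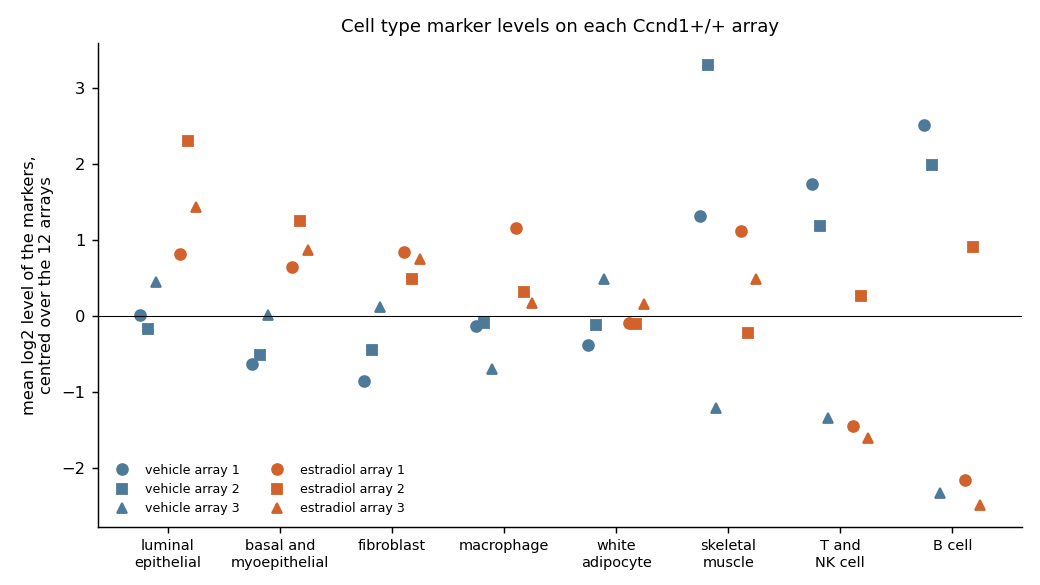
Mean log2 level of the markers of 8 cell types (vertical axis, centred on the mean over the 12 arrays), with 1 symbol per array; blue marks vehicle, orange estradiol, and the shape gives the array number. The luminal, basal, fibroblast and macrophage levels of the estradiol arrays lie above those of the vehicle arrays, while the B cell level spans -2.34 to 2.51 within the vehicle group alone.

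Estradiol moved expression mostly upward. The limma fit called 342 of the 18193 genes (adjusted p under 0.05 by Benjamini-Hochberg), 1.88% of all genes tested: 333 were higher under estradiol (1.83%) and 9 lower (0.0495%). At an unadjusted p under 0.05 there were 1859 higher and 591 lower genes. The median difference of all genes was 0.01, and that of the 333 called risers was 1.39. Of these, 250 rose by 1 or more, 81 by 2 or more and 22 by 3 or more, while 83 rose by less than 1. In all 342 called genes the 3 estradiol arrays lay on one side of the 3 vehicle arrays, as they did in 3094 genes, or 17.0%, of the whole table. The skew upward was also present in that wider count, with 11.9% of genes higher and 5.11% lower in every estradiol array. Counts by class below are to be read beside these shares and the 1.83% of all genes called higher.

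The count depended on which array was in the fit. It was 107 without vehicle array 1, 100 without vehicle array 2, 1146 (915 higher and 231 lower) without vehicle array 3 and 153 without estradiol array 3, and 247 and 242 without estradiol arrays 1 and 2. Vehicle array 3 read highest of its group in 235 of the 333 risers, where the vehicle arrays averaged 6.71, 6.80 and 7.06 and the estradiol arrays 8.44, 8.46 and 8.47. All 342 differences kept their sign in each of these fits, and 89 genes were called in every one of them. Below, a gene that passed in each of the 6 fits that leave out 1 Ccnd1+/+ array is said to hold without any array. A fit that also took in each array's luminal marker level, chosen once the data had been seen, called 10 genes; the median size of the 342 differences was 1.30 instead of 1.37 and their median SE 0.32 instead of 0.22. Those 10 were Mmd2, Greb1, Gas6, Ngfr, Spon1, Lrg1, Padi4, Nexmif, Atp8b1 and Fbxw17. The same with the B cell level, likewise chosen late, called 698.

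**Figure D2:**
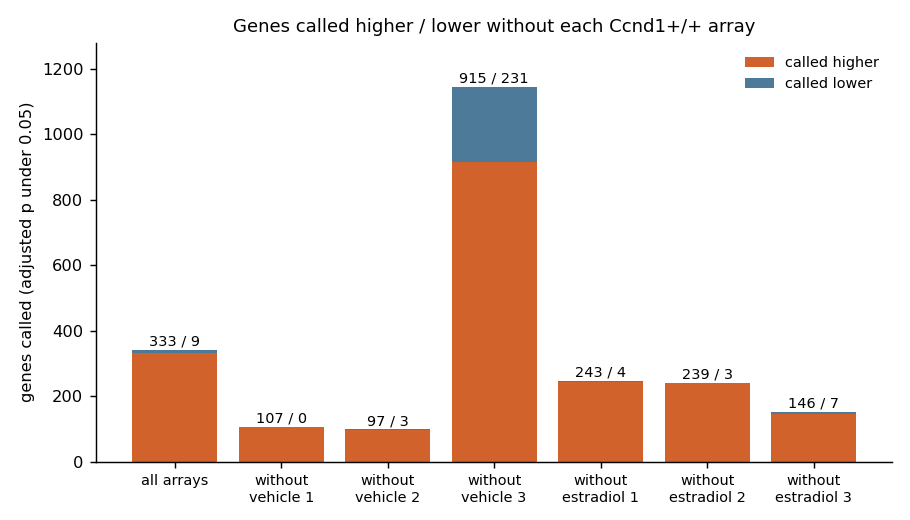
Bars give the number of genes called higher (orange) and lower (blue) at an adjusted p under 0.05 with all arrays and without each Ccnd1+/+ array in turn, with both counts printed above. The count runs from 100 without vehicle array 2 to 1146 without vehicle array 3.

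Signal level bore on how often a gene was called. Split by mean level over the 12 arrays into 5 equal bins, the genes had 0.66% calls in the dimmest bin, then 2.20%, 2.64%, 2.03% and 1.87%. The median SE ran from 0.13 in the dimmest bin to 0.23 in the middle one, and the median size of all differences from 0.09 to 0.26. Genes with a mean of at most 6.21, the dimmest 40%, supplied 101 called risers and 3 called falls among 7277 genes (1.43%, against 2.18% of the brighter genes), that is 30.4% of all calls. A probe set's brightness depends on its probes as well as on its RNA, so the bins rank signals and not amounts of transcript. The smallest called rise was 0.38 in the brightest bin and 0.58 in the dimmest.

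**Figure D3:**
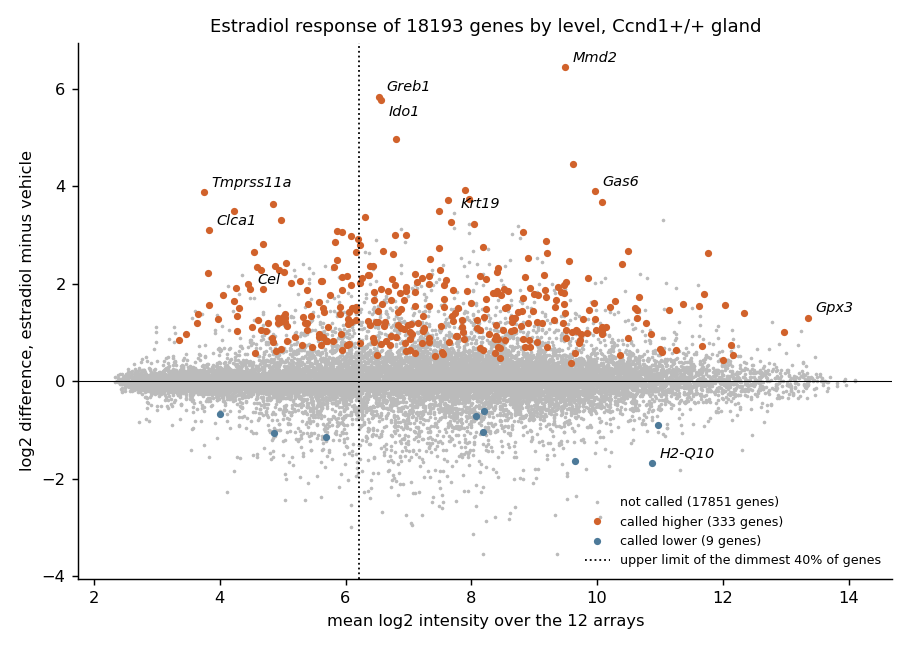
Log2 difference (estradiol minus vehicle) of each of the 18193 genes against its mean log2 intensity over the 12 arrays. Orange points are the 333 genes called higher, blue the 9 called lower and grey the rest; the dotted line is the limit of the dimmest 40% at 6.21, left of which 104 called genes lie.

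Among genes of hormone action, 4 of 28 known estrogen targets rose (14.3%, against 1.83% of all genes, and 2 without vehicle array 1 or 2): Greb1, Pgr, Lcn2 and Tfap2c. The list as a whole was mixed, with a median of 0.13, 11 differences below 0 and a lowest of -1.22. Greb1, a cofactor of the estrogen receptor, read 3.40, 3.82 and 3.98 on vehicle and 10.05, 9.38 and 9.25 on estradiol. Its other probe sets reach from 0.35 to 4.31. Of 42 nuclear receptors 1 rose (2.38%), Pgr, the progesterone receptor and a classical estrogen target, which read 5.64, 5.18 and 5.04 in the vehicle arrays and 7.97, 8.68 and 8.40 in the estradiol arrays. The groups were far apart, and the difference was 3.06 ± 0.34 (SE, adjusted p = 0.00249) and held without any array. The other Pgr probe sets stood at 0.66 and 1.44. Esr1, the alpha receptor gene itself, read 10.36, 10.56 and 11.47 against 10.54, 10.25 and 10.28, with overlapping groups and no call. Of 43 receptors of peptide and other hormones 2 rose (4.65%). Oxtr, through which oxytocin makes myoepithelial cells contract, went from 6.41, 6.27 and 8.68 to 11.48, 11.74 and 11.53; vehicle array 3 was by far the highest of its group and still below every estradiol array. Agtr2, the type 2 receptor of angiotensin, went from 3.22, 3.14 and 3.28 to 4.57, 4.38 and 4.81 (difference 1.38 ± 0.13, adjusted p = 0.000971). Both hold without any array. Agtr2 lay under the lower quartile of all 3 vehicle arrays, where the size of a rise is less sure.

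Among 85 steroid and retinoid enzymes and binding proteins 4 rose (4.71%) and none fell, and the median difference was 0.00. Hsd11b2, which inactivates the glucocorticoid corticosterone, read 6.27, 5.57 and 6.42 on vehicle and 8.46, 8.25 and 9.06 on estradiol, a rise of 2.50 ± 0.36 (adjusted p = 0.00781) that held without any array. Akr1c14, which reduces 3-keto steroids, went from 6.97, 7.27 and 8.60 to 10.94, 9.55 and 9.94 (2.53 ± 0.50, adjusted p = 0.0364). Akr1cl, an aldo-keto reductase, rose by 3.92 and Crabp2, which carries retinoic acid inside the cell, by 1.04. The list's count was 1 without vehicle array 1 or 2 and 6 without vehicle array 3. No member of 70 cytochrome P450 genes was called, with a median of 0.01. In the prostaglandin pathway 1 of 24 genes rose, the prostaglandin importer Slco2a1, from 8.73, 8.49 and 8.32 to 10.14, 10.83 and 9.86; it was not called without vehicle array 2 (difference 1.75, adjusted p = 0.0523).

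The luminal and the basal and myoepithelial markers were the classes with the highest medians. Other epithelial classes lay near 0, with medians of 0.09 for keratins and 0.15 for milk genes. The median was 0.18 for 31 claudins and tight junction genes, of which 0 were called. It was -0.01 for 35 desmosome and cadherin genes, of which 1 rose. All 19 basal and myoepithelial markers had a difference above 0, with a median of 1.32, and 8 of them rose; the count was 3 without vehicle array 1 or 2 and 12 without vehicle array 3. The contractile gene Acta2, smooth muscle actin, read 10.45, 10.94 and 11.23 on vehicle and 12.27, 12.67 and 12.45 on estradiol (1.59 ± 0.21, adjusted p = 0.00522). Snai2, a transcription factor of basal cells, read 8.80, 8.52 and 8.72 against 10.59, 9.81 and 10.65 (1.67 ± 0.21, adjusted p = 0.00486) and holds without any array. Cnn1, Tagln, Pdpn, Sox10 and Lama3 rose by 1.97, 0.86, 1.41, 1.68 and 0.90. The basal keratins were not called: Krt14 read 6.04, 6.85 and 6.96 against 7.14, 9.33 and 7.97, and Krt5 6.01, 5.95 and 6.52 against 6.68, 7.32 and 7.13, both with groups apart, at adjusted p of 0.137 and 0.0771.

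Luminal markers had a median of 1.46, and 22 of 24 lay above 0, but only 2 were called, Tfap2c and Prom1, and none without vehicle array 1 or 2. Estradiol array 2 was the highest in this list. The keratins of luminal cells show the spread: Krt19 read 7.50, 7.21 and 8.37 on vehicle and 10.40, 11.84 and 11.18 on estradiol, and Krt8 8.89, 8.44 and 9.21 against 11.10, 12.96 and 12.02. Their differences, 3.45 ± 0.90 and 3.18 ± 1.02, exceed those of most called genes, yet the adjusted p was 0.0932 and 0.173. Foxa1, a pioneer factor for the estrogen receptor, overlapped between the groups, at 8.53, 7.93 and 8.62 against 8.04, 9.87 and 8.57. Among all 48 keratins the 4 called were less usual ones, Krt77 (2.05), Krt6a (1.45), Krt4 (1.20) and Krt23 (0.88), and none of them was called without vehicle array 1 or 2. Krt77 is otherwise known from skin, and the 20 epidermal markers it belongs to had a median of 0.05 and no other call.

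Of 20 milk genes 1 rose. With 1 array left out, 4 rose (without vehicle array 3), 3 rose (without estradiol array 1) or 1 rose and 2 fell (without vehicle array 2). The riser in the full fit was Cel, a lipase secreted into milk, at 3.75, 4.17 and 3.87 on vehicle and 5.15, 6.13 and 6.19 on estradiol. Csn3, the kappa-casein gene, read 8.22, 7.07 and 8.44 against 10.55, 11.46 and 11.38 without a call (adjusted p = 0.172). Its other probe set stood at 0.4. The beta-casein gene Csn2 read 9.30, 4.17 and 8.40 against 3.83, 4.63 and 6.26 and the whey gene Wap 6.99, 5.07 and 8.16 against 5.59, 5.44 and 5.99. For both, vehicle arrays 1 and 3 were the high ones and the groups overlapped.

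**Figure D4:**
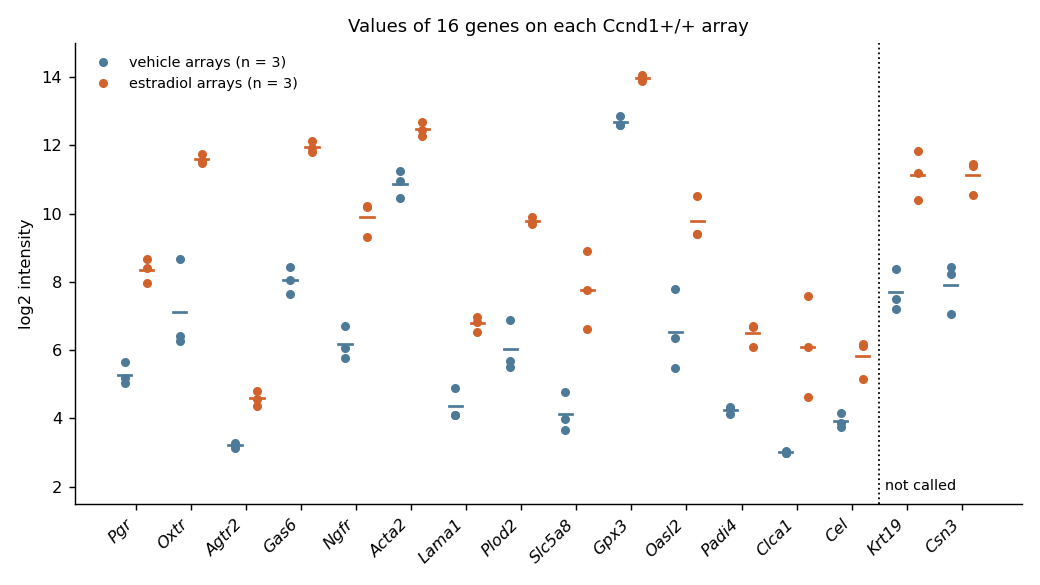
Log2 intensity of 16 genes on each of the 6 Ccnd1+/+ arrays; dots are arrays (blue vehicle, orange estradiol, 3 each) and dashes group means. The 14 genes left of the dotted line were called, and the 2 right of it, Krt19 and Csn3, were not, although their groups do not overlap.

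Secreted signals and their receptors supplied a spread of single members, class by class. In the TGF-beta and BMP pathway 4 of 65 genes rose (median 0.10): Fst, the secreted antagonist of activin, from 6.50, 7.82 and 7.70 to 9.84, 8.93 and 9.94; the ligands Tgfb2 (2.06) and Tgfb3 (1.87), which restrain ductal growth; and the ligand Bmp8a (1.22). In the Wnt pathway 4 of 62 rose (median 0.14). Rspo1, which strengthens Wnt signalling, read 5.18, 4.76 and 4.82 against 7.49, 6.74 and 7.55, and 3 secreted Wnt antagonists or relatives of them rose beside it, Wif1 (2.21), Sfrp1 (1.85) and Dkk3 (1.09). Neither pathway kept a call without vehicle array 1 or 2, while 8 and 9 members were called without vehicle array 3. No member of 29 Notch genes (median -0.01) or of 25 Hedgehog and Hippo genes (median 0.34) was called; without vehicle array 3, 6 of the latter rose, at a median of 0.59.

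Neurotrophin and axon guidance genes, which many tissues outside the brain use, had 4 calls among 80. Ngfr, the low-affinity neurotrophin receptor, went from 6.07, 5.76 and 6.72 to 10.21, 9.30 and 10.19, a rise of 3.72 ± 0.32 (adjusted p = 0.000791) that held without any array. The other Ngfr probe sets stood at 0.55 and 1.69. The Ngfr ligand gene Ntf5 rose by 1.28, the Eph receptor Ephb3 by 1.40 and the semaphorin receptor Plxnb2 by 1.03. Ngfr is carried by myoepithelial cells and by Schwann cells alike, and the 16 Schwann cell and nerve markers had 5 calls and a median of 0.31. Their levels were -0.48, -0.19 and 0.01 in the vehicle arrays and 0.82, 0.32 and 0.56 in the estradiol arrays. The glia gene S100b read 5.71, 7.88 and 7.84 against 8.37, 7.92 and 8.79 and was not called. The part of nerve tissue in these rises was not tested.

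Gas6, a secreted ligand of the Axl, Mertk and Tyro3 receptors, read 7.65, 8.04 and 8.44 on vehicle and 11.79, 11.91 and 12.12 on estradiol. Its difference of 3.90 ± 0.22 (adjusted p = 3.38e-05) held without any array, but the other Gas6 probe set stood at 0.37. The prolactin, growth hormone and Jak/Stat class had 4 risers among 28: Socs2, a feedback inhibitor of growth hormone signalling (9.07, 8.99 and 9.28 against 10.45, 10.57 and 10.17), Stat5a (0.98), the cytokine Lif (0.75) and the oncostatin receptor Osmr (0.71). Socs2 alone of these holds without any array. In the EGF family, 2 of 18 genes rose, both receptors, Egfr (1.78) and Erbb3 (1.60), and each has another probe set just below 0 (-0.05 and -0.17). Neither was called without vehicle array 1 or 2.

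Several matrix classes also shifted upward. Of 43 matricellular genes and glycoproteins 6 rose, with 37 differences above 0 and a median of 0.89; of 42 collagens 5 rose, with 35 above 0 and a median of 0.62; and all 21 collagen-processing enzymes lay above 0, with a median of 0.54 and 3 calls. These counts were 3, 0 and 2 without vehicle array 2, and 15, 10 and 11 without vehicle array 3. Fibroblast markers, which share members with these classes, were above 0 in 23 of 23 genes with a median of 0.89, and they averaged -0.86, -0.45 and 0.12 on vehicle against 0.84, 0.49 and 0.75 on estradiol. What part of the matrix differences goes with more fibroblast RNA was not tested.

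Collagens that fill interstitial tissue in bulk were not among the calls. Col1a1 read 10.21, 10.42 and 11.18 on vehicle and 11.41, 11.59 and 11.47 on estradiol (0.89, adjusted p = 0.309), and Col3a1 12.49, 12.84 and 13.42 against 13.70, 13.54 and 13.75 (0.75, adjusted p = 0.329). The 5 called were Col18a1 (1.83), a basement membrane collagen, Col16a1 (1.69), Col17a1 (1.57), the collagen of epithelial hemidesmosomes, Col11a1 (1.11) and Col9a3 (0.82). Enzymes that mature collagen were clearer. Plod2, which hydroxylates lysines for cross-links, went from 5.51, 5.69 and 6.89 to 9.69, 9.89 and 9.73 (3.74 ± 0.50, adjusted p = 0.00522). P4ha3, a prolyl hydroxylase subunit that read under the lower quartile in all vehicle arrays, went from 3.82, 3.66 and 3.31 to 5.57, 5.13 and 6.12. Both hold without any array, and P4hb, its partner subunit, rose by 0.54 without holding.

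The laminins of basement membranes shifted upward too, and among adhesion genes single members rose. Of 10 laminin genes all lay above 0 (median 0.84) and 2 rose. Lama1 went from 4.09, 4.09 and 4.88 to 6.54, 6.98 and 6.83 (2.43 ± 0.24, adjusted p = 0.00159). Lama3 rose by 0.90 (0.08 in its other probe set), and its call was lost without vehicle array 1 or 2 or estradiol array 2 or 3. The 27 integrins had a median of 0.18, with 10 below 0 and 2 called. Itga8, a partner in receptors for nephronectin and fibronectin, rose by 2.01 and Itgav by 1.04, although another Itgav probe set was at -0.31. Spon1, a secreted matrix protein, read 7.77, 8.39 and 9.01 against 12.05, 11.95 and 12.17 and Spon2 5.71, 6.17 and 6.55 against 9.59, 8.86 and 10.46. Ccn1, Thbs1, Fbln7 and Emilin1 rose by 2.15, 1.37, 1.21 and 1.18. The hyaluronan-binding proteoglycan Vcan rose by 2.65, though its 8 probe sets reach from -0.28 to 2.69, and the cell surface proteoglycan Sdc1 went from 7.79, 7.73 and 8.70 to 10.48, 10.75 and 10.88.

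Single proteases that cut matrix and single protease inhibitors rose, while the medians of their classes stayed near 0. The median was 0.09 for matrix metalloproteinases and their tissue inhibitors and 0.03 for ADAM and ADAMTS genes. Of 22 matrix metalloproteinases and their tissue inhibitors 3 rose: Mmp14, a membrane-bound collagenase (7.54, 7.97 and 8.16 against 9.23, 9.87 and 10.08), Timp1 (2.67) and Timp2 (1.47). Only Mmp14 of these holds without any array. Of 48 ADAM and ADAMTS genes 2 rose, the versican- and aggrecan-cleaving proteases Adamts15 (7.33, 7.44 and 7.65 against 9.58, 9.97 and 9.83) and Adamts4 (1.19). The secreted protease Htra1 read 11.29, 11.49 and 11.98 against 13.03, 12.98 and 12.92. It belongs to 73 trypsin-like serine proteases and kallikreins, of which 2 rose (2.74%, against 1.83% of all genes). The serpin Serpinb11 read 3.94, 3.69 and 4.12, under the lower quartile throughout, against 5.83, 6.15 and 6.80, a rise of 2.34. It belongs to 61 serine protease inhibitors, of which 2 rose (3.28%), with a median of 0.01. All 36 cathepsins and lysosomal enzymes missed the threshold, with a median of 0.26 and 28 above 0.

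Transporters and channels are large families with medians near 0. Of 328 solute carriers 7 rose (2.13%, against 1.83% of all genes), and the median was 0.01. That count was 2, 1 and 17 without vehicle arrays 1, 2 and 3. Slc5a8, which takes up short monocarboxylates with sodium, was by far the strongest, at 3.98, 3.65 and 4.77 on vehicle and 6.61, 8.90 and 7.77 on estradiol (3.63 ± 0.50, adjusted p = 0.00593). The carriers Slc22a4 and Slc6a15, of organic cations and neutral amino acids, rose by 2.05 and 1.19. Slc25a24, Slc45a3 and Slc66a2 rose by 0.97, 0.88 and 0.47. Among 79 sodium, calcium and chloride channels and their relatives, 3 rose (3.8%; 7 rose and 3 fell without vehicle array 3). Cacna1g, a low-voltage-activated calcium channel, went from 5.52, 5.91 and 5.34 to 8.02, 7.92 and 8.65 (2.61 ± 0.28, adjusted p = 0.00229), and Ano4, of the anoctamin family, from 3.56, 3.69 and 3.99 to 5.50, 5.87 and 5.62. Clca1, a secreted protein that acts on chloride channels, read 2.98, 3.00 and 3.06 against 4.62, 7.59 and 6.10, and its call was lost without vehicle array 1 (3.07, adjusted p = 0.0958), vehicle array 2 or estradiol array 3. The other Clca1 probe set stood at 0.15. Of 84 potassium channels 1 rose, Kcnk1, from 6.68, 6.86 and 7.22 to 8.24, 9.81 and 8.54, and not without vehicle array 1 or 2; the median was -0.07, with 57 below 0. In 45 ABC transporters, 35 aquaporins and ion pumps and 12 connexins none was called.

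Enzymes that build sugar chains had 8 risers among 125, with a median of 0.10. Chst13, which sulfates chondroitin, went from 6.01, 5.99 and 6.62 to 8.53, 8.42 and 8.51 (2.28 ± 0.32, adjusted p = 0.00705). Has2, which spins hyaluronan, went from 5.09, 4.95 and 5.18 to 6.60, 6.40 and 6.71, and the sulfotransferase Chst8 from 4.92, 5.37 and 5.55 to 6.78, 6.71 and 6.49. St3gal1, which caps mucin-type sugars with sialic acid, rose by 1.20, and of the first 3 each holds without any array. The class had 4 calls without vehicle array 1 or 2 and 14 without vehicle array 3. Galnt3, which starts mucin-type chains, rose by 1.59, B3gnt9 by 1.33, Hs3st6 by 1.21 and Large2 by 0.97. The other probe sets of Galnt3 stood at 0.13 and 0.15.

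The secretory route that handles such proteins moved little but evenly. Of 40 genes of protein folding and export in the endoplasmic reticulum, 34 lay above 0, the median was 0.27, and 3 rose: Ssr3 (11.12, 11.35 and 11.47 against 12.06, 12.04 and 12.05), P4hb and Sec24d (0.70). None of the 3 was called when any array but vehicle array 3 was left out, and 10 were called without that array.

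Genes of the immune system went both ways. Interferon-responsive genes had 7 risers and 1 fall (Cxcl9, described with the chemokines) among 81 (9.88% called, against 1.88% of all genes). Their median was 0.17, and 31 of the 81 were higher in every estradiol array, against 11.9% of all genes. Oas1a, an antiviral enzyme induced by interferon, read 7.89, 8.62 and 8.75 on vehicle and 11.56, 10.55 and 10.53 on estradiol (2.46 ± 0.37, adjusted p = 0.0103), and its call was lost without vehicle array 1 (2.19, adjusted p = 0.0509). Oasl2, Ifi44l, Irf7, Oas2, Rtp4 and Xaf1 rose by 3.23, 2.18, 2.03, 1.52, 1.46 and 1.06. In each of these 7 estradiol array 1 was the highest of its group. The count was 1, 2 and 15 without vehicle arrays 1, 2 and 3. The 81 genes averaged 0.57, 0.10 and 0.05 on estradiol and -0.07, -0.03 and -0.40 on vehicle, and the level of 25 macrophage markers, highest in the same array, was 1.16, 0.31 and 0.17 against -0.14, -0.10 and -0.70. The part of macrophage content in the interferon values was not tested.

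Chemokines and their receptors had 3 risers and 1 fall among 57, at a median of -0.03. Cxcl15, a chemokine of mucosal epithelia, went from 5.36, 5.27 and 5.95 to 10.22, 11.22 and 10.04 and holds without any array. Ccl8, which draws monocytes, went from 9.12, 9.43 and 9.39 to 12.59, 11.16 and 12.19, and the receptor Ccr1 rose by 1.83 (0.07 in its other probe set). Ccl8 and Ccr1 lost their calls without vehicle array 1 or 2 or estradiol array 1 or 3. Cxcl9, which draws activated T cells, fell, from 10.38, 10.06 and 10.22 to 8.53, 8.84 and 8.37 (-1.64 ± 0.25, adjusted p = 0.0112). That call was lost without vehicle array 1 (-1.56, adjusted p = 0.0584) and without estradiol array 3 (-1.53, adjusted p = 0.0547). Of 85 interleukin and 43 TNF family genes, receptors included, none was called. Acute phase proteins had 2 risers among 33: Lrg1, a secreted leucine-rich glycoprotein, at 10.10, 10.41 and 10.68 against 12.95, 12.87 and 13.24, held without any array, and Lcn2, which binds bacterial iron carriers, rose by 2.87. The call of Lcn2 was lost in each fit without 1 Ccnd1+/+ array, except the fit without vehicle array 3. Hc, complement component C5, read 5.23, 5.26 and 5.20 against 7.16, 8.0 and 7.98 (2.49 ± 0.26, adjusted p = 0.00212).

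Lymphocyte genes were lower in the means without the test bearing it. All 16 B cell markers and all 11 class II histocompatibility genes lay below 0, with medians of -2.03 and -0.76 and no call, and 22 of 23 T and NK cell markers did, with a median of -1.84 and 1 fall, Tbx21, which directs T helper and NK cells (6.04, 6.29 and 5.78 against 4.63, 5.08 and 4.97). The call of Tbx21 was lost without vehicle array 1 (-1.14, adjusted p = 0.116), without vehicle array 2 (-1.02, adjusted p = 0.136) and without estradiol arrays 1 and 3. The B cell receptor gene Cd79a shows the layout of the whole list, at 9.54, 9.05 and 5.60 on vehicle and 4.59, 7.94 and 4.86 on estradiol: 2 high arrays in 1 group and 1 in the other. Without vehicle array 3 the medians were -3.73 for B cell, -2.91 for T and NK cell and -1.37 for class II genes, still with no B cell or class II gene called. Of 25 muscle markers none was called either (median -0.92, and -2.22 without vehicle array 3).

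**Figure D5:**
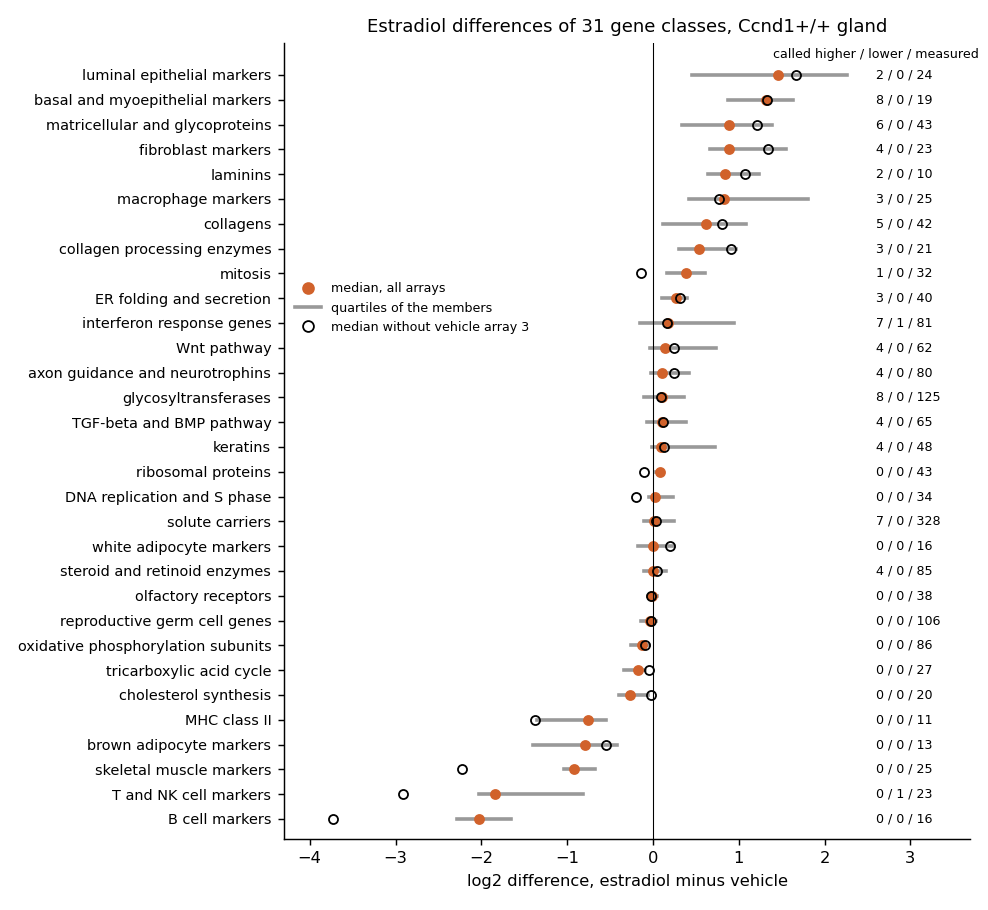
Median log2 difference (estradiol minus vehicle) of 31 gene classes (orange), with the quartiles of their members (grey bars) and the median without vehicle array 3 (open circles); the numbers at the right count members called higher, called lower and measured. Epithelial, stromal and matrix classes lie above 0 and lymphocyte and muscle classes below it, and the open circles of the mitosis, ribosomal protein and replication genes lie on the other side of 0 from their medians.

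Transcription factors among the risers come from many families. Of 104 homeobox and T-box genes 1 fell (Tbx21, above) and 1 rose, Prrx2, a factor of mesenchyme, at 4.57, 4.41 and 5.36 against 7.67, 7.19 and 8.39 (2.97 ± 0.38, adjusted p = 0.00486). Etv5, an Ets factor downstream of growth factor receptors, read 6.48, 6.72 and 6.04 against 7.92, 8.34 and 7.96. Nfil3, which represses clock genes, read 7.03, 7.63 and 7.19 against 9.31, 9.13 and 8.97. Each of these 3 holds without any array. Of 29 immediate early and AP-1 genes 5 rose: Egr2 (8.17, 7.91 and 6.42 against 10.44, 10.47 and 10.76), Ccn1, Ier3 (1.53), Fosl2 (9.60, 9.84 and 9.77 against 11.06, 10.85 and 10.64) and Jun (0.87). Egr2 had its low outlier in vehicle array 3 and was not called without estradiol array 3 (2.96, adjusted p = 0.0583). Of 329 genes with Zfp zinc finger names 1 rose, Zfp516 by 0.58, and none fell. Without vehicle array 3, 6 rose and 25 fell.

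Promoter windows were searched for the binding motifs of the factors above, in RefSeq sequence (GRCm38.p6) from 250 bases before to 50 after each start, for 14452 of the genes tested, 250 of the called risers among them. The full palindromic estrogen response element, GGTCANNNTGACC, stood in the windows of 5 genes and of no called riser. Of the windows of the called risers 7.59% held an AP-1 site (TGACTCA or TGAGTCA, either strand) and of all windows 4.52%. An interferon-stimulated response element (GAAANNGAAA, either strand) stood in 1.98% of the risers' windows, 3.03% of all windows and 39.2% of those of interferon-responsive genes. A CArG box, the site of serum response factor, stood in 1.98% of the risers' windows and 1.35% of all windows. A gene can have several windows, and several of the CArG windows are neighbouring starts of Egr2. Counted by gene, 3 of 250 risers held a CArG box, against 229 of 14452 genes. A match is a description of the letters, and no match says nothing of binding elsewhere. The 100 bases before the start of 3 called genes, picked after their values were seen to show 1 motif each, follow with the motif in capitals. Oas1a (chr5:120907526-120907625, minus strand) holds overlapping interferon elements, Egr2 (chr10:67537466-67537565, plus strand) a CArG box and Padi4 (chr4:140774204-140774303, minus strand) an AP-1 site.
Oas1a: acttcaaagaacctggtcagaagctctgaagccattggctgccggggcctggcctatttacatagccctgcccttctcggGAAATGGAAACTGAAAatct
Egr2: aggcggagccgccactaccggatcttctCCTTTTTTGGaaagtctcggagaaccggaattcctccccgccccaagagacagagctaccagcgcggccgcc
Padi4: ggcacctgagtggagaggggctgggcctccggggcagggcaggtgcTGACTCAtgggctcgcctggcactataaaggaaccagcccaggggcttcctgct

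Redox and stress genes had 5 risers, of which Gpx3 and Mt1 hold without any array. Gpx3, a secreted glutathione peroxidase, was bright and tight, at 12.60, 12.86 and 12.58 on vehicle and 14.06, 13.89 and 13.99 on estradiol (1.30 ± 0.12, adjusted p = 0.000791). The metal-binding protein Mt1 read 10.56, 10.81 and 11.12 against 12.40, 12.35 and 12.37. Gsta2, a glutathione transferase, read 4.07, 4.14 and 3.91, under the lower quartile, against 6.95, 6.30 and 5.97 (2.36). It was not called without vehicle array 1 (2.38, adjusted p = 0.0567) or 2 (2.41, adjusted p = 0.0556). These are 3 of 50 antioxidant genes, whose median was 0.11. Among 81 heat shock genes and co-chaperones 1 rose, Hspa1b (1.80), whose sequence is close to that of Hspa1a, and among 19 targets of the stress factor ATF4 1 rose, Trib3 (1.44). Neither was called without vehicle array 1 or 2.

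Classes of core metabolism and translation had 2 calls between them. Ido1, which breaks down tryptophan, was 1 of 32 amino acid genes and among the steepest risers of the table, at 4.89, 4.80 and 5.37 on vehicle and 9.89, 11.98 and 10.50 on estradiol (5.77 ± 0.64, adjusted p = 0.00251), and holds without any array. Eif1a, an initiation factor, was 1 of 76 translation factors and tRNA synthetases and rose by 0.57, but not without vehicle array 1 or 2. None of 43 cytoplasmic ribosomal protein genes (median 0.08), 73 mitochondrial ribosomal protein genes (0.01), 86 subunits of oxidative phosphorylation (-0.13), 27 genes of the tricarboxylic acid cycle (-0.17), 25 of glycolysis (-0.08), 23 of fatty acid oxidation (-0.20), 20 of cholesterol synthesis (-0.27) or 43 proteasome subunits (0.09) was called. Positive medians up to 0.12 carry no direction, here and in the classes above, since centring each array on its own median shifts the median of all genes to -0.11 and those of the ribosomal and proteasome genes to -0.04. For oxidative phosphorylation 68 of 86 differences were below 0, and 18 of the 86 genes were lower in every estradiol array, against 5.11% of all genes. Olfactory receptors (38 genes, median -0.01) and germ cell genes (106 genes, median -0.03), which the gland is not known to use, had no call. Other lists that are mostly dim had some. In the list of 61 beta-defensin, urinary protein and prolactin-like genes 2 rose. They were Mup10 (4.08, 4.43 and 5.78 against 8.01, 7.65 and 8.71) and Ceacam1 (0.68, with another probe set at -0.07). Ceacam1 is in the list but belongs to none of these families. Of 130 synapse genes 3 rose, Dlg5 (1.01), Nlgn2 (1.0) and Syt9 (0.84). Mup10 belongs to a cluster of near-identical genes and lost its call without vehicle array 2 (3.19, adjusted p = 0.0504). The synapse genes had no call without vehicle array 1 or 2.

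Cell cycle genes had 3 calls after 7 days of treatment. Of 54 cyclins, CDKs and inhibitors 2 rose (3.7%, against 1.83% of all genes), Cdk20 by 0.77 and the inhibitor Cdkn2b by 0.55, and without vehicle array 1 neither was called. None of 34 replication genes was called (median 0.02), and of 32 mitosis genes 1 rose, Anln, a scaffold of the cleavage furrow, from 6.31, 6.24 and 6.41 to 7.41, 7.67 and 7.29 (1.13 ± 0.16, adjusted p = 0.00611). The proliferation marker Mki67 read 9.97, 9.51 and 6.24 on vehicle and 7.82, 8.52 and 8.52 on estradiol, and Top2a 9.66, 9.27 and 6.49 against 8.55, 9.42 and 8.68. In both vehicle array 3 was far below the other 5 arrays, and the groups overlapped. The mitosis median of 0.38, with 29 of 32 above 0, was -0.14 without that array, which is also the vehicle array low in B and T cell signal. The cyclin D1 gene Ccnd1 itself read 9.17, 8.50 and 8.75 against 9.90, 10.82 and 9.35, with groups apart and no call (1.22 ± 0.31, adjusted p = 0.0895). Ccnd2 and Ccnd3 differed by -0.06 and 0.01 and Esr2 by -0.05, without a call, and the sign of Ccnd3 turned under quantile (-0.01) and median scaling (-0.12).

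Dim genes include risers that started at the floor of the arrays. In 22 called risers all 3 vehicle arrays lay under the lower quartile of their array, and in 20 of these no estradiol array did. The membrane protease Tmprss11a read 2.73, 2.68 and 2.70 on vehicle and 5.18, 7.75 and 6.81 on estradiol. Pate6, of a family of small secreted proteins known from the male tract, read 3.54, 3.04 and 3.39 against 6.15, 8.31 and 5.94. Nexmif, known from neurons, read 3.31, 3.49 and 3.09 against 7.02, 6.10 and 6.70. That is a rise of 3.31 for the probe set used, while the gene's other probe sets rose by 0.44 to 0.85. At that floor the vehicle values have little room to differ.

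More of these dim risers share no class. Frem1, of the epithelial basement membrane, read 3.61, 3.46 and 4.01 against 5.99, 6.71 and 6.84. Tcf24, a helix-loop-helix factor, read 3.76, 3.72 and 4.0 against 6.37, 6.02 and 5.95. Tnfaip6, which links hyaluronan to protein, read 3.36, 3.51 and 4.07 against 5.35, 4.88 and 5.64. Rpp25, a subunit of ribonuclease P, read 3.04, 3.31 and 3.26 against 4.88, 4.98 and 5.01, and Tpbg, the trophoblast glycoprotein, 3.71, 3.58 and 3.53 against 6.65, 6.26 and 5.86. Cthrc1, a secreted protein of remodelling stroma, was dim but above the quartile, at 4.21, 4.54 and 5.23 against 7.54, 7.42 and 7.56 (2.85 ± 0.31, adjusted p = 0.00229). Nxnl2 read 4.60, 4.52 and 4.55 against 7.64, 7.13 and 8.14, while its other probe set stood at 0.58. Of the 104 dim calls 28 hold without any array.

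Further risers stand outside the classes described so far or close them. Mmd2 had the largest difference of all genes, at 5.96, 6.00 and 6.04 on vehicle and 12.15, 12.51 and 12.65 on estradiol (6.44 ± 0.14, adjusted p = 1.01e-08). Its other probe sets stood at 0.07 and 5.18. Perp, a desmosomal protein and p53 target, read 5.55, 5.56 and 6.09 against 8.04, 9.41 and 8.49 and holds without any array, as Mmd2 does. Slfn4, a myeloid gene, read 5.73, 6.80 and 6.28 against 11.04, 8.62 and 8.96, and the IgG receptor Fcgr1 5.41, 5.50 and 6.24 against 10.02, 7.86 and 8.27. In both estradiol array 1, the array highest in macrophage markers, stood above the rest, and both lost their call without vehicle array 1 or 2; the part of macrophage content was not tested. Fcgr1, Fcgr3 (1.86) and the endotoxin co-receptor Cd14 (1.81) were the 3 called of 25 macrophage markers, of which none was called without vehicle array 1 or 2. Lrrc17 rose by 2.99, but its other probe set stood at -0.04 and its call was lost without any array but vehicle array 3. The mesenchymal cadherin Cdh11 rose by 2.75 (1.19 in its other probe set) and lost its call without vehicle array 2 or estradiol array 1 or 3. The fibroblast genes Pdgfra and Fap rose by 1.72 and 1.61. The calcium-binding S100a6 rose by 1.59 and Anxa3 by 1.30. The adhesion molecule Ncam1, of nerve and Schwann cells, rose by 1.66, although its other probe sets reach from -0.04 to 0.91. Of 119 Rab and Ras genes Rasgrf1 (1.42), Rab7b (1.11) and Rab31 (1.05) rose, a count of 3 that was 1 without vehicle array 1 or 2 and 9 without vehicle array 3.

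Size alone did not make a call. A difference of 2 or more occurred in 198 genes: of 137 such rises 81 were called, and of 61 such falls none. Of the 117 uncalled, 57 had groups that did not overlap (53 higher and 4 lower) and 60 overlapped, 57 of them lower. Igfbp6, a secreted binder of insulin-like growth factor 2, read 7.89, 9.44 and 10.87 against 13.14, 12.15 and 12.82 (3.30 ± 0.77, adjusted p = 0.0639), and the phospholipase Pla1a 6.47, 7.72 and 9.08 against 11.17, 9.73 and 11.18 (adjusted p = 0.0534). In both, the highest and the lowest vehicle array differed by more than 2. Without vehicle array 3 both were called, at 4.04 (adjusted p = 0.0171) and 3.60 (adjusted p = 0.0136). The proteoglycan gene Ncan was the largest separated decrease, at -2.94, with vehicle array 3 the highest of its group, again without a call; without that array it was -2.06 (adjusted p = 0.0334). At the other end, Pdlim7, a cytoskeletal adaptor, was called at 1.31 from 7.73, 7.88 and 7.68 against 9.05, 9.05 and 9.13, although another of its probe sets stood at -0.63.

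Of the 9 called falls none was called in every fit that left out 1 array. The histocompatibility gene H2-Q10, one of several near-identical class I genes, read 11.48, 11.01 and 11.88 against 9.41, 9.57 and 10.39, and Rgs5, a pericyte gene, 11.23, 11.45 and 11.66 against 10.53, 10.39 and 10.73. The T cell checkpoint ligand Cd274 fell by 1.04, the protocadherin Pcdh17 by 1.07, the glucosylceramidase Gba2 by 0.71, the acyltransferase Gpat2 by 0.68 and Cep95 by 0.60. The other probe set of Gba2 stood at 0.02, and those of Cep95 reach from -0.18 to 0.18. Cxcl9 and Tbx21 are given above. The number of falls was 0 without vehicle array 1, 3 without vehicle array 2 and 231 without vehicle array 3.

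Against the Ccnd1-/- glands the responses of 2 genes differed by the interaction test (0.011% of genes), Padi4 and Anln. Padi4, which turns arginines of histones into citrulline, read 4.34, 4.29 and 4.13 on vehicle and 6.69, 6.70 and 6.09 on estradiol in Ccnd1+/+ glands. In Ccnd1-/- glands it was at 4.61 ± 0.08 and 4.72 ± 0.12 (SD, n = 3), for an interaction of -2.14 ± 0.23 (SE, adjusted p = 0.0378). Anln went from 6.77 ± 0.23 to 5.95 ± 0.22 in Ccnd1-/- glands, for an interaction of -1.96 ± 0.22 (adjusted p = 0.0378). The interaction had 0 calls without vehicle array 1 or 2 of the Ccnd1+/+ glands, without any 1 of the Ccnd1-/- vehicle arrays or of Ccnd1-/- estradiol arrays 2 and 3, with the replicate block, after median scaling and without dim genes; it had 1 without Ccnd1+/+ estradiol array 2 or 3, 17 without Ccnd1+/+ vehicle array 3, 18 without Ccnd1+/+ estradiol array 1 and 5 without Ccnd1-/- estradiol array 1. Of the 342 genes called in Ccnd1+/+ glands, 260 had a Ccnd1-/- difference of the same sign. The same count over all 18193 genes was not taken, so the 260 have no background to be read against. The median Ccnd1-/- differences of luminal, basal and fibroblast markers were -0.07, -0.03 and -0.03. In the limma interaction test 239 of the 333 risers had an unadjusted p under 0.05, as had 1170 of all 18193 genes. The interaction contains the Ccnd1+/+ difference by which the risers were picked, so this count is raised by that choice. With 2 genes called by the interaction test, a call in Ccnd1+/+ glands is not by itself a difference from Ccnd1-/- glands.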

How the data were processed

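The deposited values are log2 intensities of 45101 probe sets, normalised by the authors; per the submitters' processing notes RMA and limma 2.9.16 were used. The chip's probe annotation is the platform table's, and 18032 of the 18193 genes matched a RefSeq symbol: 34945 probe sets name 1 gene, 932 several and 9160 none (the last 2 kinds were left out), and 64 are controls. Where a gene had several probe sets, the brightest on average was used, and no dim gene was filtered out. Sizes are those of the probe set used, and other probe sets of the same gene can give much smaller or larger ones.

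All p-values come from 1 limma fit (limma 3.58.1, R 4.3.3) of 4 group means over 12 arrays with eBayes (8 residual and 2.15 prior degrees of freedom), two-sided, adjusted by Benjamini-Hochberg over all genes. It was tested on simulated data. Errors after ± are SE unless named SD. Marker levels are means of values centred over the 12 arrays. The series text calls the mice separate animals.

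The comparison and the 106 gene classes (6422 genes, with 156 called risers and 5 called falls) were chosen with earlier results of these data known; classes are described by counts and medians and not tested. Most named genes come from a rule, not all of whose genes are printed: 7 anchors, the 30 largest called rises and 15 largest falls, up to 4 called members a class (or 2 members of a class with no call and a median over 0.5 in size), 15 dim calls, 10 large uncalled differences and 10 calls of small spread. Other genes (Krt5, Krt14, Foxa1, Csn2, Wap, Col1a1, Col3a1, Mki67, Top2a, Adipoq, S100b, Cd79a and the remaining called class and dim members) were picked after their values were seen. Figures were drawn with matplotlib 3.10.9.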

Additional observations from a re-analysis of the deposited data

Results flagged for a closer look

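Anln and Padi4 stood out because their estradiol responses differed between the genotypes by the interaction test of limma, at -1.96 and -2.14 (Ccnd1-/- response minus Ccnd1+/+ response, log2). The number of such calls was 0 with the replicate block, after median scaling, with the muscle or luminal covariate, and without vehicle array 1 or 2 of the Ccnd1+/+ glands. Outside the genes described, 28 of the 9160 probe sets that name no gene were called in the Ccnd1+/+ comparison, 24 higher and 4 lower (0.306% of them), with a largest rise of 4.08 and a largest fall of -1.27; their transcripts are not named here.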

How the results depend on the processing

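Signs were compared in every alternative fit but that of each probe set on its own: 341 of the 342 called differences kept theirs with the mean of all probe sets, all 238 that were tested without the dimmest 40% of genes did, and all 342 did in the others. Calls (total, higher, lower) numbered 311, 303 and 8 with the mean of all probe sets, 235, 230 and 5 without the dimmest 40% of genes, 237, 223 and 14 after quantile scaling, 186, 171 and 15 after median scaling, 327 in total with trend and robust priors, 2785, 2037 and 748 with array weights (73.1% higher), 71, 70 and 1 in the fit of the 6 Ccnd1+/+ arrays, and 94, 94 and 0 or 715, 666 and 49 at an adjusted p under 0.01 or 0.10. Each probe set on its own gave 431 calls, 14 of them lower. With covariates added after the data were seen they numbered 698, 614 and 84 (B cell level), 245 in total with 3 lower (muscle level) and 10, 10 and 0 (luminal level). Leaving out 1 of the 12 arrays gave 100 to 1146 calls, 97 to 915 higher and 0 to 231 lower; without vehicle array 3, 79.8% were higher. The interaction's 2 calls became 0 with each probe set on its own, without dim genes, after median scaling and with the muscle or luminal covariate, were 2 with the mean of all probe sets, and became 1 after quantile scaling or with trend and robust priors, 22 with array weights, 39 with the B cell covariate and 0 to 18 on leaving out arrays. With the replicate block the fit called 158 genes (157 higher, 1 lower), 157 of them among the 342, and 0 interactions; deviations of same-numbered arrays correlated at -0.20, 0.20 and 0.41, so the numbers were not taken to pair the mice. Signs turned for Ccnd2 (0.08 with array weights, and -0.21 to 0.08 on leaving out arrays), Ccnd3 (-0.24 with the mean of probe sets, -0.01 and -0.12 after quantile and median scaling, -0.05 and -0.02 with the B cell and muscle covariates, -0.07 to 0.16 on leaving out arrays) and Esr2 (0.02 with array weights, 0.00 with the luminal covariate, -0.19 to 0.09 on leaving out arrays). The cause of these changes was not tested. Signal at the floor of the array limits what can be read of dim genes in vehicle glands.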
